A study of Rattus norvegicus with 64 samples.

Results

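The contractile genes of detrusor smooth muscle were followed in rat bladders rebuilt with a tissue graft. The 10 genes sought were Acta2, Actg2, Myh11, Cnn1, Tagln, Smtn, Lmod1, Synpo2, Des and Myocd, and a gene was taken as measured where the transcript accession of a non-control array probe led to its rat symbol. By this match 9 of the 10 genes were found, on 13 of the 30367 gene probes of the array, and Synpo2, which encodes an actin-bundling protein of muscle, had no matched probe.

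Male Wistar rats had part of the bladder removed and replaced with bladder acellular matrix (BAM), a rat bladder stripped of its cells, which was implanted bare or seeded with stromal cells grown from fat (adipose tissue-derived mesenchymal stromal cells, ASCs, which the sample labels call ADSCs). The ASCs came from the retroperitoneal fat of 10-week-old syngeneic male donors and were used at the third passage. Per the methods the rebuilt wall was cut away from the native bladder before RNA was taken. Walls were collected after 7, 30, 90 and 180 days and hybridized to one-color arrays, with 8 rats in each of the 8 groups and 1 array for each rat. All rats thus carried the same operation and the same matrix, no unoperated bladder was included, and the age of the recipients is not given in the sources used here. A slide carried the 8 arrays of 1 group, which means that the effects of slide and group cannot be told apart, and days 7 and 30 had a scan date different from that of days 90 and 180.

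Smooth muscle of the bladder wall, the detrusor, shortens when myosin filaments pull on thin filaments of smooth muscle actin, which are anchored to dense bodies and to a desmin scaffold. Calponin, transgelin, smoothelin and leiomodin bind or build the actin filaments and mark contractile cells. Most of these genes are switched on together by serum response factor and its coactivator myocardin, which bind through a DNA element called the CArG box. Acta2 is also made by myofibroblasts of healing wounds and by smooth muscle of vessels, and Des also by striated muscle, so no single member is particular to the detrusor.

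Promoter sequence was matched by symbol in the RefSeq promoter table of the GRCr8 build for 6 of the 10 genes (Acta2, Actg2, Cnn1, Des, Smtn and Synpo2), and the 250 bases before the transcript start are shown for both smooth muscle actins, whose deviations were the least alike of all pairs of members, and for calponin, the member closest to the others. They lie at chr1:241172504-241172753 on the minus strand (Acta2), at chr4:117594040-117594289 on the minus strand (Actg2) and at chr8:28908187-28908436 on the plus strand (Cnn1). Capitals mark matches of 10 bases to a CArG box in which 1 letter of its A and T stretch is a G or a C.
Acta2: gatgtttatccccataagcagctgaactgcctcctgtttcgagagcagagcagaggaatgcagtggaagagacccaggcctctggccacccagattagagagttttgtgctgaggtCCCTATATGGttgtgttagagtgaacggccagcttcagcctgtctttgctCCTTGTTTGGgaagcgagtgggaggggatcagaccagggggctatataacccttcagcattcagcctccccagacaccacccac
Actg2: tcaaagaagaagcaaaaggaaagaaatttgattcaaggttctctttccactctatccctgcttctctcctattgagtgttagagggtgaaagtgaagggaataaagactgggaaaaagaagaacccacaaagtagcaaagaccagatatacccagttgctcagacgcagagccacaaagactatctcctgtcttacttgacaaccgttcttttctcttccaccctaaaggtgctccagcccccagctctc
Cnn1: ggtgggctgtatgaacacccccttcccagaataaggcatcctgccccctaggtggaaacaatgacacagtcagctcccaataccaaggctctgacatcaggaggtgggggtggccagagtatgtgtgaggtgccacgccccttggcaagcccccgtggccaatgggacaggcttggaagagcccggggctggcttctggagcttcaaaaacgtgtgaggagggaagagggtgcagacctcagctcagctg
The Acta2 window held 2 such matches, CCCTATATGG at positions -134 to -125 and CCTTGTTTGG at positions -84 to -75, counted from the transcript start. Since the motif reads as itself on the other strand, both strands were searched, and the other 5 windows held none. Of 33469 promoter windows of the same length, 6.84% held such a match and 1.5% held the CArG box without a changed letter, which none of the 6 windows did. A match is only a match of letters, and a window without one says nothing about binding elsewhere.

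Levels are log2 processed signals of a probe from which the 75th percentile of the same array was subtracted, so that a level of 0 equals that percentile. A gene is shown by its brightest probe that was saturated on no array or, failing that, by its brightest probe, and levels of different genes come from different probes and are not compared. All 9 shown probes were well above background on all 64 arrays. A difference was called where the adjusted p of limma was below 0.01 and the fold change above 1.5. In these bulk samples fewer smooth muscle cells and less RNA per cell cannot be told apart.

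**Figure D1:**
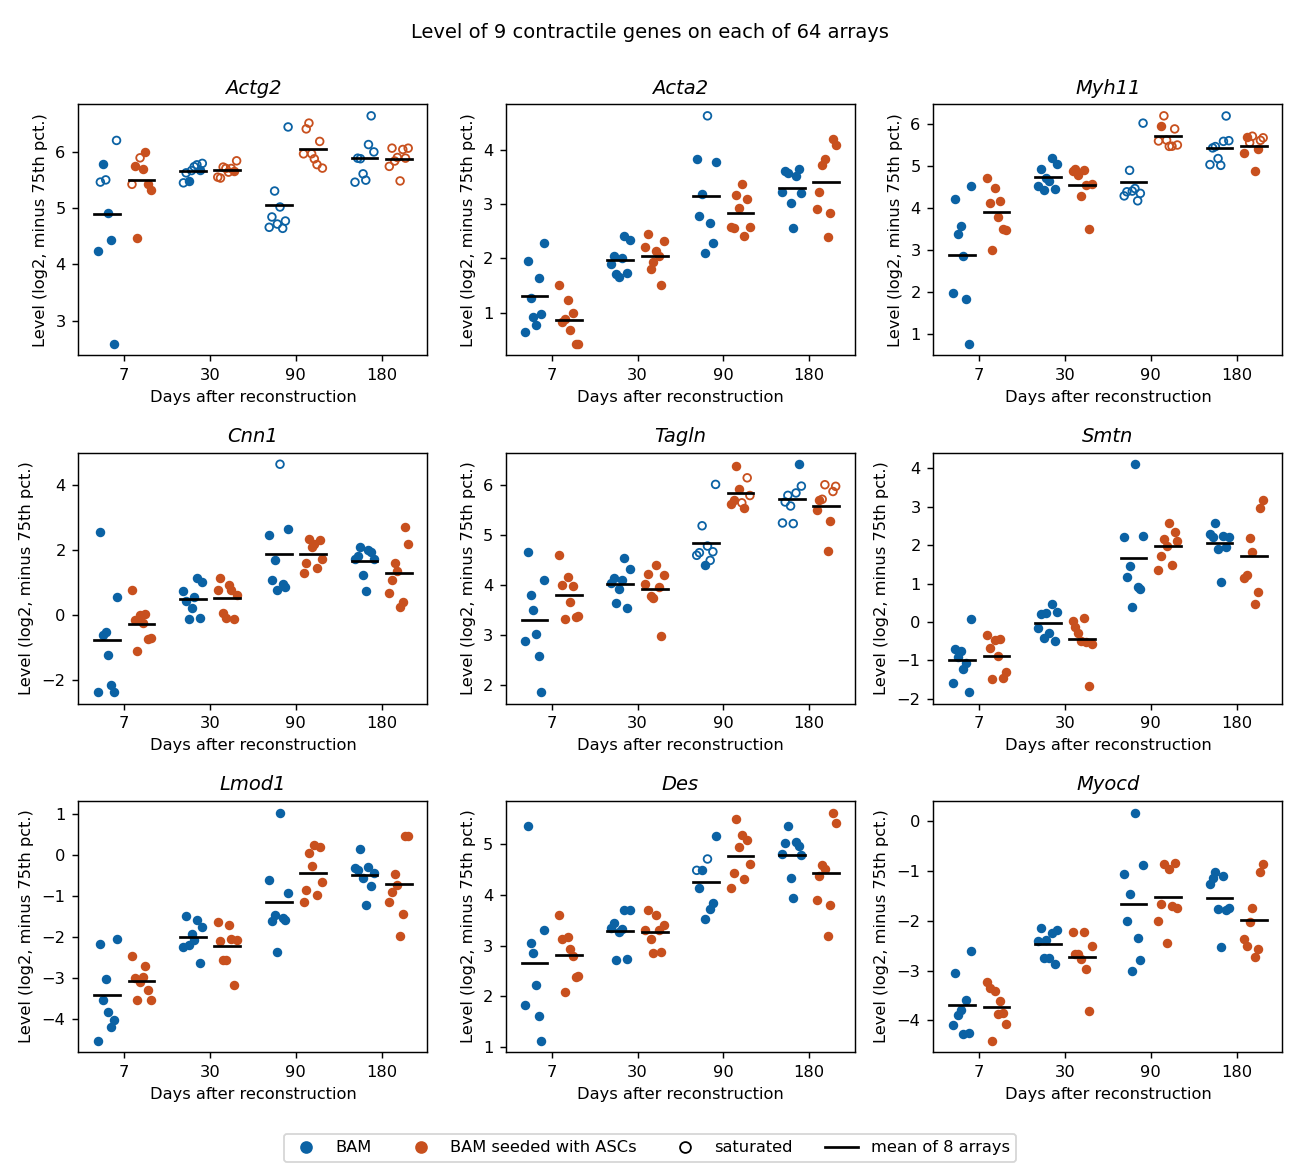
Level of each of the 9 contractile genes (log2 signal relative to its array's 75th percentile) against days after reconstruction, 1 point for each of 64 arrays, open where the probe was saturated, with a line at the mean of 8 arrays. Most genes were lower at 7 and 30 days than at 90 and 180 days, BAM at 7 days was widely spread, and Actg2, Myh11 and Tagln were mostly open circles at the late days.

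As a group the contractile genes were low at 7 days, where BAM was the most uneven of the 8 groups, and higher at 90 and 180 days. The mean level of the 9 genes was 0.69 ± 0.92 (SD, n = 8) in BAM and 1.00 ± 0.43 in BAM seeded with ASCs at 7 days, and 1.74 ± 0.29 and 1.62 ± 0.36 at 30 days. At 90 days it was 2.52 ± 0.74 and 3.01 ± 0.34. It was 2.98 ± 0.35 in BAM and 2.79 ± 0.61 with ASCs at 180 days. The probes of Actg2, Myh11 and Tagln were saturated on most arrays of 90 and 180 days, and that of Actg2 at 30 days too. The means of these days thus rest partly on lower bounds. At 90 days the subtracted 75th percentile was 11.18 in BAM and 10.08 with ASCs, so the gap between these 2 means cannot be read as a difference in RNA. In BAM at 7 days the mean of the 9 genes ran from -0.57 in replicate 7 to 1.83 in replicate 8 and 2.03 in replicate 2, with the other rats between.

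Among the actins, Actg2, the gamma actin that makes up much of the thin filaments of visceral smooth muscle, was bright from the start. In BAM its level ran from 2.59 to 6.20 with a median of 5.18 at 7 days, and in BAM seeded with ASCs from 4.46 to 5.99 with a median of 5.56. At 30 days the medians were 5.67 and 5.68, with all 16 arrays between 5.44 and 5.84. The probe was saturated on 5 of 16 arrays at 7 days, on 13 of 16 at 30 days and on all 16 at both 90 and 180 days, so later levels are lower bounds and no fold change is given for those days.

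Acta2, the alpha actin shared with vessels and myofibroblasts, had higher medians on each later day in both grafts. In BAM seeded with ASCs it ran from 0.43 to 1.5 (median 0.86) at 7 days, from 1.51 to 2.45 (median 2.10) at 30 days, from 2.41 to 3.38 (median 2.76) at 90 days and from 2.39 to 4.20 (median 3.47) at 180 days. In BAM it ran from 0.65 to 2.28 (median 1.13), from 1.66 to 2.41 (median 1.95), from 2.09 to 4.62 (median 2.98) and from 2.55 to 3.64 (median 3.37) on the same days. All 8 seeded samples of 30 days lay above all 8 of 7 days, as for 5.6% of all gene probes, whereas the BAM samples of these days overlapped.

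Myh11, the heavy chain of smooth muscle myosin and a marker of mature smooth muscle, was uneven among rats with BAM at 7 days. There it ran from 0.77 in replicate 7 to 4.52 in replicate 8 with a median of 3.12, against 3.00 to 4.71 with a median of 3.97 in BAM seeded with ASCs. At 30 days it ran from 4.44 to 5.20 in BAM and from 3.50 to 4.93 in BAM seeded with ASCs, with both medians at 4.69. At 90 days the probe was saturated on 8 of 8 BAM arrays and 7 of 8 seeded arrays, and at 180 days on 8 of 8 and 4 of 8.

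Of the actin-binding proteins, Tagln (transgelin) ran from 1.86 to 4.66 in BAM and from 3.32 to 4.61 in BAM seeded with ASCs at 7 days, and from 4.40 to 6.02 and from 5.54 to 6.39 at 90 days. Cnn1 (calponin) had the largest SD of the 9 genes in BAM at 7 days (1.69) and ran from -2.37 to 2.55, where replicate 2 stood above the next highest sample, replicate 8, at 0.57. Smtn (smoothelin), a protein of fully contractile cells, was between -1.83 and 0.46 on all 32 arrays of 7 and 30 days and between 0.40 and 4.11 on all 32 arrays of 90 and 180 days. Lmod1 (leiomodin), which starts new actin filaments, had medians of -3.67 in BAM and -3.03 with ASCs at 7 days, and of -0.40 and -0.81 at 180 days.

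Des, the intermediate filament that ties the contractile units together, had medians of 2.54 in BAM and 2.87 with ASCs at 7 days and of 4.88 and 4.44 at 180 days. Myocd, the coactivator of serum response factor, had medians from -3.84 in BAM at 7 days to -1.51 in BAM at 180 days. Its 7 day group was the lowest of the 4 days in both grafts.

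When the 8 groups were ordered by level, the groups of 90 and 180 days held the upper 4 places for 7 of the 9 genes, and Myh11 and Actg2 were the exceptions, with BAM at 90 days below BAM at 30 days. The probes of both were saturated on 8 of 8 BAM arrays at 90 days, so that this place has no order, and the dimmer Myh11 probe had 3.09 ± 0.40 in BAM at 30 days and 4.02 ± 0.55 at 90 days. Neighbours in that order passed the test only for Acta2 between BAM seeded with ASCs at 90 and at 30 days (adjusted p = 0.0087), and between BAM at 90 and at 30 days for Tagln (0.0036), Des (0.0089) and Smtn (1.8e-05), all by limma. For Myh11, Cnn1, Lmod1, Myocd and Actg2 no neighbouring groups did.

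The comparison of BAM seeded with ASCs against BAM on the same day asks whether the seeded cells changed the contractile genes of the rebuilt wall. At 7, 30 and 180 days none of the 9 genes was called, and at 90 days Myh11, Actg2 and Tagln were called higher. The Actg2 probe was saturated on 7 of 8 seeded and 6 of 8 BAM arrays at 30 days, and on 8 of 8 in each graft at 180 days. At 180 days the Myh11 probe was saturated on 4 of 8 seeded and 8 of 8 BAM arrays, and the Tagln probe on 4 and 7. For these probes the lack of a call on those days does not show that the grafts were alike. Of all gene probes 7.73%, 1.67%, 12.5% and 2.44% were called in either direction at 7, 30, 90 and 180 days, and 3.88% were called higher at 90 days. At an unadjusted p below 0.05 there were 3 members at 7 days (Myh11, Actg2 and Tagln), none at 30 and 180 days and 4 at 90 days, and a two-way analysis of variance on the same levels called 0, 0, 3 and 0.

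**Figure D2:**
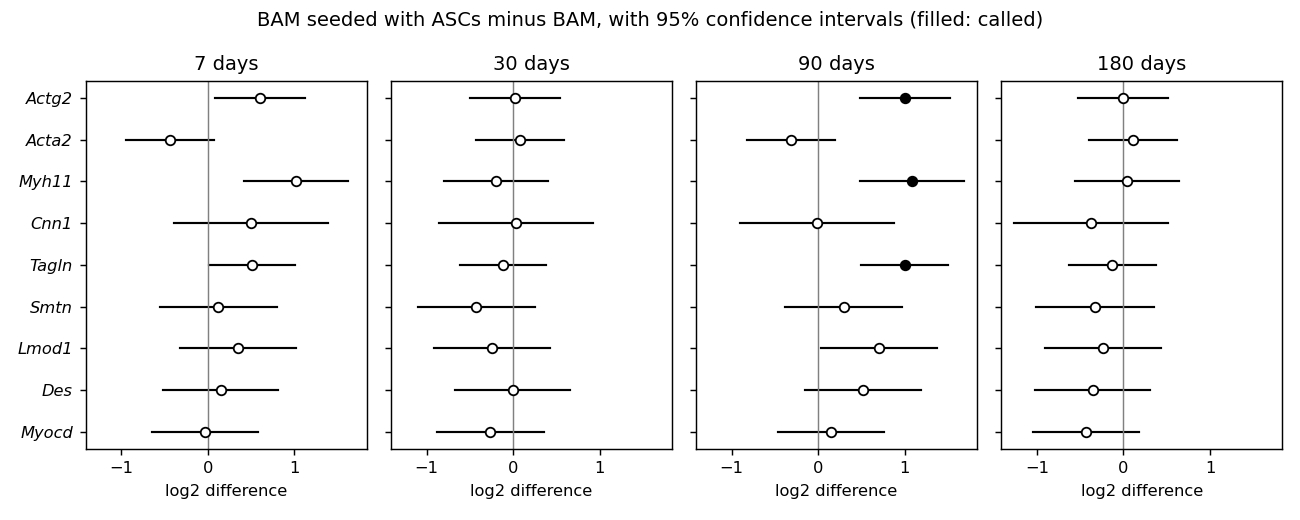
Difference between BAM seeded with ASCs and BAM in log2 units for each gene at 7, 30, 90 and 180 days, with 95% confidence intervals from limma and filled points where the difference was called. The 3 filled points, Actg2, Myh11 and Tagln at 90 days, belong to probes that were saturated on most or all of those arrays.

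At 7 days the seeded grafts had a higher mean for 7 of the 9 genes, but no difference passed. Myh11 came closest, with a mean of 3.91 ± 0.57 against 2.89 ± 1.29, a difference of 1.02 ± 0.30 (SE) on the log2 scale and an adjusted p of 0.012, and all 8 seeded samples lay above the BAM mean although only 1 lay above all BAM samples. Its other probe differed by 0.83 (adjusted p = 0.076). Quantile normalization brought Myh11 past the threshold (1.18, adjusted p = 0.0033), as did leaving out BAM replicate 2, 4 or 8 or the seeded replicate 3 (0.0025, 0.0067, 0.0013 and 0.0051), and its adjusted p ranged from 0.0013 to 0.14 over all alternatives.

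The other differences at 7 days were 0.61 for Actg2 (95% confidence interval 0.09 to 1.13), 0.51 for Tagln (0.01 to 1.00), 0.49 for Cnn1 (-0.40 to 1.38), 0.35 for Lmod1 (-0.32 to 1.01), 0.15 for Des (-0.52 to 0.82) and 0.12 for Smtn (-0.56 to 0.80). Acta2 went the other way, at -0.44 (-0.95 to 0.07), and Myocd was near 0, at -0.03 (-0.65 to 0.58). These intervals leave room for differences of over 1 log2 unit in Actg2, Cnn1 and Lmod1. The median difference of the 9 genes was 0.35, beside a median of -0.16 over all gene probes.

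At 7 days the cell type markers of the wall also differed between the grafts. Of the 30367 gene probes 640 were called higher and 1707 lower with ASCs. Of the 8 measured urothelial genes 6 were called higher with ASCs, with the largest rise in Upk2, a plaque protein of the bladder lining, at 2.87 ± 0.58 (adjusted p = 0.00022), and their mean level was 0.78 to 2.62 on seeded arrays against -2.95 to 2.01 on BAM arrays. Of 7 endothelial genes 2 were called lower, with the largest fall in Vwf, a clotting protein of endothelium, at -0.997 ± 0.17 (1.2e-05), and 1 of 6 pericyte genes, Pdgfrb, was lower, with a difference of -0.69 ± 0.19 (0.0063). None of the 9 leukocyte genes was called, and their mean level ran from 1.05 to 1.68 on seeded arrays and from 1.37 to 2.57 on BAM arrays. Their part in the Myh11 difference was not tested.

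At 30 days the grafts were close. The differences of the 9 genes lay between -0.42 (Smtn, 95% confidence interval -1.10 to 0.25) and 0.08 (Acta2, -0.43 to 0.58), with a median of -0.11 beside 0.11 over all gene probes. At 180 days they lay between -0.43 (Myocd, -1.05 to 0.18) and 0.11 (Acta2, -0.40 to 0.62), with a median of -0.24 beside 0.06. The median at 30 days includes the mostly saturated Actg2 probe, and that at 180 days the saturated probes of Actg2, Myh11 and Tagln. The values of these probes are differences in scaled level and not of the transcripts. The lowest adjusted p of any member was 0.44 at 30 days and 0.64 at 180 days.

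The calls at 90 days were 1.09 ± 0.30 for Myh11 (adjusted p = 0.0048), 1.00 ± 0.26 for Actg2 (0.0028) and 1.00 ± 0.25 for Tagln (0.0019), all differences in scaled level. All 8 seeded samples lay above the BAM mean for each of the 3 genes, and 1, 1 and 2 of them lay above every BAM sample, since BAM replicate 8 was as high as the seeded samples. These values cannot be read as fold changes of the transcripts, because the Actg2 probe was saturated on all 16 arrays, the Myh11 probe on 15 and the Tagln probe on 7 of 8 BAM and 3 of 8 seeded arrays.

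Before scaling, the same probes had nearly the same signal in both grafts. The log2 signal was 16.13 ± 0.07 in BAM seeded with ASCs and 16.23 ± 0.08 in BAM for Actg2, 15.80 ± 0.05 and 15.81 ± 0.05 for Myh11, and 15.93 ± 0.20 and 16.03 ± 0.13 for Tagln. The 75th percentile that was subtracted was 10.08 ± 0.29 on the seeded arrays and 11.18 ± 0.56 on the BAM arrays, a difference of -1.10. Of the 220 probes on the whole array that were saturated on all 16 arrays at 90 days, 220 were called higher with ASCs, with a median difference of 1.09, whereas 2.13% of the 29267 probes saturated on none of them were called higher. The median local background of the BAM arrays was 321 to 366 intensity units, against 99 to 120 on the seeded arrays.

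**Figure D3:**
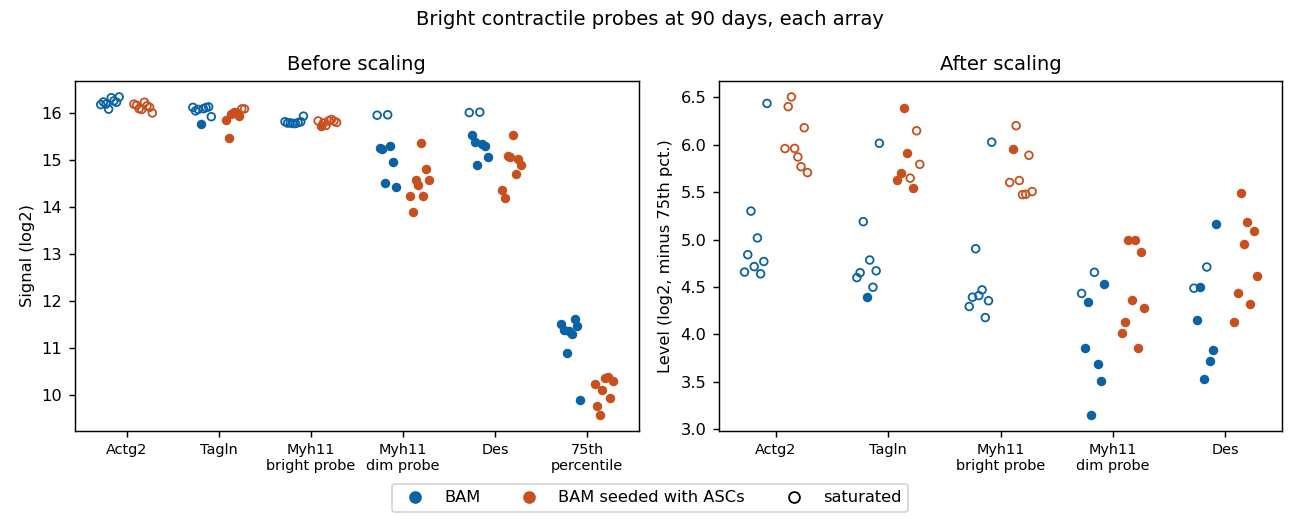
Log2 signal before scaling (left, with the 75th percentile of each array) and level after scaling (right) of 5 probes at 90 days, 1 point for each array, open where saturated. Actg2, Tagln and the bright Myh11 probe lay together before scaling and apart after it except for BAM replicate 8, and the dim Myh11 probe and Des overlapped after scaling.

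Probes with less saturation gave no call at 90 days. The dimmer Myh11 probe, saturated on 2 of 8 BAM arrays and on no seeded array, differed by 0.42 with an adjusted p of 0.31, and Des, saturated on the same number of arrays, by 0.52 (0.21). Lmod1 and Smtn, saturated on none, differed by 0.70 (0.087) and 0.29 (0.49), Myocd by 0.15 (0.72), Acta2 by -0.32 (0.31) and Cnn1 by -0.02 (0.98). The other Actg2 probe was saturated on all 16 arrays too and differed by 1.01 (0.0019). Leaving out probes saturated on any compared array, an alternative chosen after the data were seen, left 3 members to test and no call.

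The 3 calls depended on how the arrays were scaled. After quantile normalization the differences were 0.89 for Myh11 (adjusted p = 0.017), 0.11 for Tagln (0.77) and -0.03 for Actg2 (0.93), and none was called. Leaving out the seeded replicate 3 or BAM replicate 6 also ended the call of Myh11 (0.011 and 0.010). Over all alternatives the adjusted p ranged from 0.00079 to 0.31 for Myh11, from 0.00024 to 0.77 for Tagln and from 0.00022 to 0.93 for Actg2.

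Other bright genes of the wall were called at 90 days as well. Among 21 filament and myosin regulators only Myl6, a myosin light chain, was called, at 0.97 ± 0.16 (adjusted p = 4.3e-06), and its probe was saturated on all 16 arrays. Of 9 fibroblast genes Col1a2, Dcn and Col1a1 were called higher, with the largest rise in Col1a2 (1.02 ± 0.16, 1.0e-06), saturated on 7 of 8 seeded and 8 of 8 BAM arrays. The leukocyte gene Lyz2 was higher by 0.81 ± 0.24 (0.0076), saturated on 7 of 8 arrays in each graft, and the urothelial gene Upk1b by 1.13 ± 0.34 (0.0093), saturated on none. Cdh5, an endothelial cadherin, was lower, with a difference of -0.87 ± 0.23 (0.0039), and Myog, a transcription factor of striated muscle, was called too although its probe was well above background on 1 seeded array and on no BAM array, so that it has no direction.

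Comparisons between days within each graft ask how the contractile genes changed as the wall healed. From 7 to 30 days all 9 genes had a higher mean in both grafts, and 3 were called in BAM and 1 in BAM seeded with ASCs, where 4.44% and 6.67% of all gene probes were called higher. In BAM Myh11 rose by 1.86 ± 0.30 (adjusted p = 3.4e-06), Lmod1 by 1.43 ± 0.33 (0.00093) and Myocd by 1.23 ± 0.31 (0.0022). In BAM seeded with ASCs Acta2 rose by 1.18 ± 0.25 (0.00045). Without BAM replicate 2 of day 7 there were 6 calls in BAM, and without seeded replicate 7 of day 30 there were 2 with ASCs.

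The median change over these days was 0.98 in BAM and 0.65 in BAM seeded with ASCs, beside -0.06 and 0.27 over all gene probes. The change of the graft difference from 7 to 30 days itself was called for 0 of 9 genes by limma and by the analysis of variance, with 1 gene, Myh11, at an unadjusted p below 0.05 and an adjusted p of 0.069. It is therefore not shown that the early rise differed between the grafts. For this change 0.985% of all gene probes were called.

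**Figure D4:**
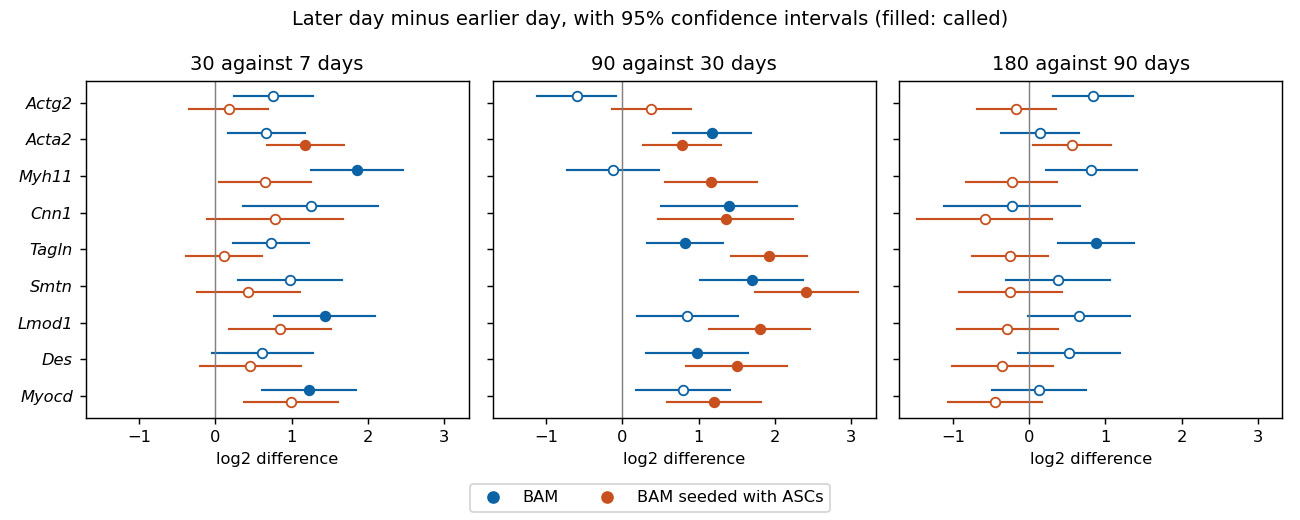
Change of each gene between neighbouring days in log2 units, for BAM and BAM seeded with ASCs, with 95% confidence intervals from limma and filled points where the change was called. Filled points were most frequent from 30 to 90 days, where 8 genes were called with ASCs and 5 in BAM.

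Between 30 and 90 days more contractile genes were called than between the other days. In BAM seeded with ASCs 8 of the 9 genes were called higher, all but Actg2, and in BAM 5 were, beside 17.8% and 35.2% of all gene probes called higher. The median difference of the 9 genes was 1.35 with ASCs and 0.85 in BAM, where the medians of all gene probes were 0.11 and 0.30. Smtn rose by 2.42 ± 0.34 (adjusted p = 4.3e-08) with ASCs and by 1.70 ± 0.34 (1.8e-05) in BAM. These were the largest changes of a shown probe in both grafts. The brighter Smtn probe, saturated on 2 of 8 BAM arrays at 90 days, rose by 1.77 ± 0.26 (1.4e-07) and 1.12 ± 0.26 (0.00019). By that probe Smtn did not have the largest change in either graft. Tagln rose by 1.93 ± 0.25 (6.2e-09) and 0.82 ± 0.25 (0.0036), Des by 1.5 ± 0.33 (0.00018) and 0.98 ± 0.33 (0.0089), and Cnn1 by 1.35 ± 0.44 (0.0096) and 1.4 ± 0.44 (0.0052).

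Acta2 rose by 0.78 ± 0.25 (0.0087) with ASCs and by 1.18 ± 0.25 (6.3e-05) in BAM. With ASCs Lmod1 rose by 1.80 ± 0.33 (1.2e-05), Myocd by 1.21 ± 0.31 (0.0010) and Myh11 by 1.16 ± 0.30 (0.0012), while in BAM the values were 0.85 (0.022), 0.80 (0.022) and -0.12 (0.74). The probes of Myh11 and Tagln were saturated on 7 and 3 of the 8 seeded arrays at 90 days and on 8 and 7 of the 8 BAM arrays, so their values are differences in scaled level between partly saturated arrays. All 8 seeded samples of 90 days lay above all 8 of 30 days for Cnn1, Des, Lmod1, Myh11, Smtn and Tagln, as did 8.39% of all gene probes. The 2 days were scanned on different dates and lie on different slides, so the date, the slide and the time cannot be told apart, and the share of spots well above background was 73.3% to 95.6% on the arrays of 7 and 30 days and 35.5% to 64.6% on those of 90 and 180 days.

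The subtracted 75th percentile differed between these days too. It was 10.40 ± 0.19 in BAM at 30 days and 11.18 ± 0.56 at 90 days, against 10.51 ± 0.07 and 10.08 ± 0.29 with ASCs. Actg2, saturated on 6 of 8 BAM arrays at 30 days and on 8 of 8 at 90 days is given no difference, and its unscaled log2 signal was 16.05 and 16.23. In BAM the second Lmod1 probe was called, at 1.53 ± 0.51 (0.0077), where the shown probe was not. That second probe was well above background on only 5 of 8 BAM arrays at 90 days. Myh11 in BAM, by the probe saturated on fewer arrays, differed by 0.93 ± 0.33 (0.013). After quantile normalization 5 genes were called in each graft. In that setting 2992 gene probes were called higher with ASCs and 3947 in BAM, where the main fit called 5412 and 10688. Cnn1 and Acta2 with ASCs and Des, Cnn1 and Tagln in BAM lost their calls when any of several single arrays was left out, and the count called higher in BAM fell to 3 without replicate 3 of day 30 or replicate 1 or 5 of day 90 and to 2 without replicate 7 of day 30. It was 2 without replicate 8 of day 90, where the saturated Actg2 was called lower. With probes saturated on any compared array left out, 6 genes were called with ASCs and 1 in BAM.

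The change of the graft difference from 30 to 90 days was called for 0 of 9 genes by limma and by the analysis of variance, beside 9.99% of all gene probes. It came to 1.11 ± 0.35 for Tagln (adjusted p = 0.016), 1.28 ± 0.43 for Myh11 (0.020) and 0.98 ± 0.37 for Actg2 (0.036), the genes with saturated probes at 90 days, and 4 members had an unadjusted p below 0.05. A fit of the 4 compared groups alone called these 3 genes, and leaving out BAM replicate 8 of day 90, whose 75th percentile was 9.91 where the other 7 BAM arrays of that day had 10.89 to 11.62, called Myh11 and Tagln (0.0084 and 0.0059). After quantile normalization the values were 0.20 for Tagln, 1.07 for Myh11 and -0.14 for Actg2, and none was called. The Myh11 probe saturated on fewer arrays gave 0.57 ± 0.47 (0.35).

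After 90 days little was called. From 90 to 180 days no member was called in BAM seeded with ASCs by limma or by the analysis of variance, where 4.14% of all gene probes were called and only Acta2 had an unadjusted p below 0.05 (0.56 ± 0.25, adjusted p = 0.14). In BAM Tagln was called, with a difference of 0.87 ± 0.25 (adjusted p = 0.0065), beside 5.21% of all gene probes called higher, but its probe was saturated on 7 of 8 arrays on both days and the difference was 0.20 (0.61) after quantile normalization. That call was lost without BAM replicate 1, 2, 4, 6 or 7 of day 90 or replicate 3, 6, 7 or 8 of day 180, and 3 members were called without BAM replicate 8 of day 90. The change of the graft difference from 90 to 180 days was called for 0 of 9 genes by limma and by the analysis of variance, beside 9.79% of all gene probes, with 3 at an unadjusted p below 0.05 (Tagln, Myh11 and Actg2), and without BAM replicate 8 of day 90 it was called lower for Tagln (-1.29, 0.0041) and Actg2 (-1.21, 0.0095). The Actg2 probe was saturated on every array of both days and the Tagln probe on most, so these are differences in scaled level.

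The regulators of the contractile machinery, a list of 24 genes of which 21 were measured, were called mostly in the same step. From 30 to 90 days 10 were called higher and 1 lower with ASCs, and 11 higher and 2 lower in BAM, beside the 17.8% and 35.2% of all gene probes called higher and 10.3% and 9.49% called lower. Pdlim3, in both counts, was well above background on 1 of 8 seeded and 0 of 8 BAM arrays at 90 days, and Prkg1, counted in BAM, on 2 of 8 BAM arrays. Myl6, counted as lower in BAM, had the saturated probe described above at 90 days, so that its fall is only one in scaled level. Hspb6, a small heat shock protein of smooth muscle, Myl9, the regulatory light chain of myosin, and Ppp1r14a, an inhibitor of myosin phosphatase, were among the risers in both grafts. Of 8 measured genes of smooth muscle transcription control, none was called between the grafts on any day. Over time Tead1, a factor of the Hippo pathway, was called higher with ASCs from 7 to 30 and from 30 to 90 days, and in BAM Klf4 was from 7 to 30 days and Foxo4, Gata6 and Tshz3 from 30 to 90 days. The genes of these lists that are named for a change over time were chosen after their values were seen. For the graft comparison no regulator was called at 7, 30 or 180 days.

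Within a group the scaled levels of the contractile genes went up and down together from rat to rat. Over the deviations of 64 arrays from their group means, the 36 pairs of members had Pearson r from 0.37 (Acta2 and Actg2) to 0.93 (Myh11 and Tagln) with a median of 0.73, and the range was 0.22 to 0.94 after quantile normalization. Cnn1 followed the mean of the other 8 genes most closely (r = 0.91) and Actg2, the probe most often saturated, least closely (0.60). Probes of the same gene had r of 0.82 for Myh11, 0.88 for Smtn, 0.87 for Lmod1 and 0.99 for Actg2. The probes of Myh11, Tagln and Actg2 were saturated on most arrays of the late days. A saturated signal varies little between rats, so its deviation largely reflects the percentile subtracted from that array. How far this raised the r of Myh11 and Tagln or of the Actg2 probes was not tested. Among members saturated on no array, r was 0.92 for Smtn and Lmod1, 0.91 for Smtn and Myocd and 0.86 for Lmod1 and Myocd. All these r values are descriptions over arrays that share the scaling of each array, and no test was made.

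Outside the members, 4912 named genes were well above background on all 64 arrays and saturated on none. Those whose deviations were most like the mean of the members were Hspb6 (r = 0.96), Lims2 and Nrxn2 (0.91 each), Slc24a3, Apobec2, Fhl1, Mylk and Tacr2 (0.90 each) and Nexn and Ppp1r14a (0.89 each), over 64 arrays. Mylk, the kinase that starts contraction, and Tacr2, a tachykinin receptor of smooth muscle, were among them.

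The leukocyte list ran the other way. Its mean deviation had a Pearson r of -0.66 and a Spearman coefficient of -0.73 with that of the members over 64 arrays, and r was negative in 8 of 8 groups, from -0.85 to -0.53. It was -0.64 without the 2 arrays farthest in the members' mean and -0.64 after quantile normalization. The regulators had r of 0.89, the transcription control genes 0.64, striated muscle genes 0.54, pericyte genes 0.33 and urothelial genes 0.21. Endothelial genes had -0.25, with r negative in 7 of 8 groups, adipocyte genes -0.15 and fibroblast genes -0.09. Both means come from the same array and share its 75th percentile, and no test was made.

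**Figure D5:**
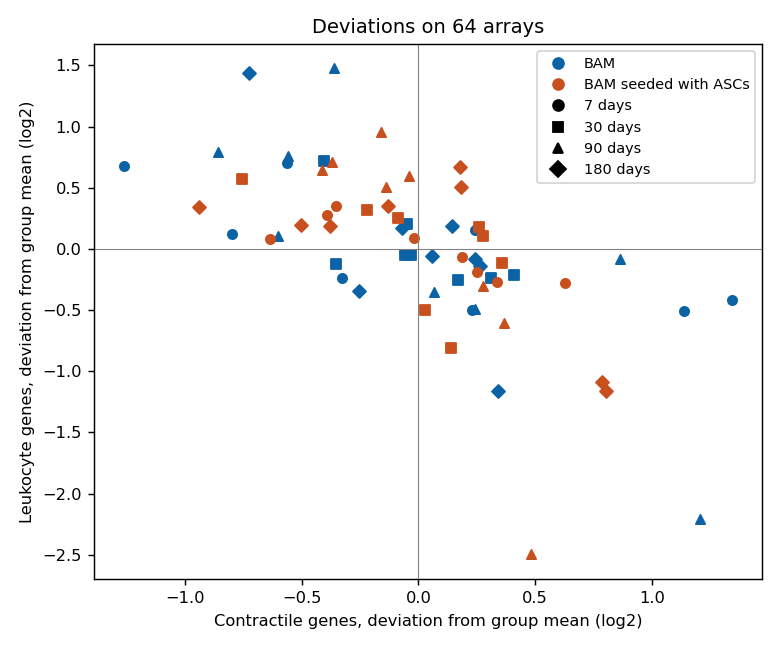
Mean deviation of the 9 leukocyte genes against that of the 9 contractile genes, both in log2 units from the mean of the group, 1 point for each of 64 arrays, with colors for the graft and shapes for the day. Arrays with high contractile levels had low leukocyte levels, with r = -0.66 over all arrays.

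Striated muscle, which also makes desmin, was sought by 10 genes. Myh4, a myosin of fast fibers, was well above background on no array in 6 of the 8 groups, and the mean level of the list ran from -3.96 to -1.31 over the 64 arrays. From 30 to 90 days 5 of the 10 were called higher in BAM, beside 35.2% of all gene probes. Of these 5, Myh1, Myh2 and Myh4 were well above background on no BAM array at 90 days. With ASCs 1 was called higher, beside 17.8% of all gene probes, and 1, Myog, lower, beside 10.3%. Ckm, the creatine kinase of muscle, rose by 2.08 ± 0.41 (adjusted p = 3.5e-05) with ASCs and by 1.62 ± 0.41 (0.00056) in BAM. Acta1, the actin of skeletal muscle, rose by 1.13 ± 0.37 (0.0058) in BAM and differed by -0.10 (0.84) with ASCs. Both were well above background on all these arrays, and these genes were chosen after their values were seen. Of the 9 leukocyte genes 5 were called lower from 30 to 90 days in each graft, the step at which most contractile genes were called higher, beside 10.3% of all gene probes called lower with ASCs and 9.49% in BAM. The mean of the list went from 0.93 to -0.42 in BAM and from 0.63 to -1.08 in BAM seeded with ASCs. None of the 6 adipocyte genes was called between the grafts on any day. Their differences ran from -2.04 to 0.12 at 90 days and from -0.02 to 3.66 at 180 days. The change of the graft difference from 90 to 180 days was called for 2 of them, Adipoq and Retn, both higher. Of all gene probes 9.79% were called for that change. The part of adipocytes, leukocytes or striated muscle in the changes of the contractile genes was not tested.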

How the data were processed

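RNA of 64 reconstructed bladder walls, 8 in each of 8 groups, was measured on one-color Agilent arrays, and the authors deposited the Feature Extraction 12.0.1.1 output, whose processed signal intensity is background-subtracted. The deposited table of processed signals, put on the log2 scale and scaled in the same way, served only as an alternative. Control spots and spots with an outlier flag were left out, processed signals were put on the log2 scale and reduced by their array's 75th percentile, and spots of a probe were averaged. Probes were named by transcript accession (18758 of 30367 gene probes). One mean per group was fitted over all 64 arrays with limma 3.58.1 in R 4.3.3, with Benjamini-Hochberg adjustment over all gene probes. Calls required an adjusted p under 0.01 together with a change of more than 1.5-fold. The fit was tested on simulated data. Each rat gave 1 array, so that the number of arrays limits the precision, and no batch term could be fitted because each slide held 1 group.

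All members are named, each by its brightest probe saturated on no array or, where every probe was saturated on some array, by its brightest. Of every other list, counts are given and the called genes with the largest rise and fall in each graft comparison are named, and the 10 genes most like the members are those with the highest r over deviations from group means. The members and lists were chosen with earlier results of these data known. Alternatives changed the background correction, scaling, probe, filter, threshold, model or samples. A result on 1 gene is not reported here.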

Additional observations from a re-analysis of the deposited data

Results flagged for a closer look

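Within a group of 8 arrays, the highest or lowest array stood apart from the others in 8 of 72 sets of a gene and a group by Dixon's test, where chance gives about 1 in 20, and sets of the same arrays are not independent. In BAM at 90 days replicate 8 was the highest for Actg2 (6.44) and for Myh11 (6.03), both on saturated probes, and its 75th percentile was 9.91 where the other arrays of the group had 10.89 to 11.62. In BAM seeded with ASCs at 30 days replicate 7 was the lowest for Myh11 (3.50), Myocd (-3.80), Smtn (-1.66) and Tagln (2.99). In BAM seeded with ASCs at 7 days replicate 3 was the lowest for Actg2 (4.46). In BAM at 180 days replicate 5 was the lowest for Smtn (1.04). No change of the graft difference between days was called for a member by limma, and 1, 4 and 3 members had an unadjusted p below 0.05 from 7 to 30, from 30 to 90 and from 90 to 180 days.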

How the results depend on the processing

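Of the values of single members, 483 kept their direction and side of the threshold under the alternatives that keep all arrays, 20 lost their call, 14 gained one and 9 turned sign, all 9 of them differences that were not called except Actg2 at 90 days. For the graft difference at 7 days, 0 called members became 1 with normexp background correction, quantile normalization, the percentile over detected probes, an adjusted p below 0.05 or dim probes left out. At 90 days, 3 became 0 with quantile normalization and 0 with saturated probes left out. For BAM seeded with ASCs, 1 call at 30 against 7 days became 3 at an adjusted p below 0.05 and 2 with only the compared groups fitted, and 8 calls at 90 against 30 days became 5 with quantile normalization. For BAM, 3 calls at 30 against 7 days became 1 with normexp and 7 at the looser threshold, and 5 at 90 against 30 days became 8 at the looser threshold and 1 with saturated probes left out. Among these 8 calls Actg2, whose probe was saturated on 8 of 8 BAM arrays at 90 days, was called lower. The 1 call in BAM at 180 against 90 days became 2 with normexp, with the deposited table or with dim probes left out. It became 3 at the looser threshold, and 0 with quantile normalization, only the compared groups or saturated probes left out. For the change of the graft difference, 0 calls became 3 from 30 to 90 days at the looser threshold or with only the compared groups, and 2 and 1 from 90 to 180 days. The cause of these shifts was not tested, except that leaving out saturated probes removes members from the test.

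With 1 array left out the number of called members ran from 0 to 1 for the graft difference at 7 days, from 2 to 3 at 90 days, and was 0 at 30 and 180 days. It ran from 1 to 2, 6 to 8 and 0 to 0 over the successive steps with ASCs, from 3 to 6, 2 to 7 and 0 to 3 in BAM, and from 0 to 0, 0 to 2 and 0 to 2 for the change of the graft difference.

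Reversed differences between the grafts were Lmod1 at 7 days (-0.0012) and Cnn1 at 90 days (0.038) with normexp. Cnn1 at 90 days with the percentile over detected probes (0.00026) and Smtn at 7 days by its brightest probe (-0.013) reversed too. So did Actg2 at 90 days with quantile normalization (-0.035). Myocd at 7 days reversed with quantile normalization (0.20), the percentile over detected probes (0.053) and the deposited table (0.014). The change of the Actg2 difference from 30 to 90 days was -0.14 with quantile normalization. With 1 array left out Cnn1 at 90 days ran from -0.17 to 0.38, Des at 7 days from -0.071 to 0.53, Myocd at 7 days from -0.12 to 0.12 and Myocd at 90 days from -0.045 to 0.41.

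With the replicate number as a block 6 members were called in BAM seeded with ASCs at 90 against 30 days, where Acta2 (adjusted p = 0.011) and Cnn1 (0.012) lost their calls. The number does not pair the rats, since 9 of 32 pairs had a correlation of deviations over 0.1 (-0.28 to 0.33). Saturation limits these arrays, since Actg2, Myh11 and Tagln have lower bounds in place of levels on most arrays of 90 and 180 days.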
